A study of Mus musculus with 4 samples.

Results

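The distal part of mouse chromosome 5 carries a densely packed set of positions called as bound by Flag-tagged Sp5 in differentiating embryonic stem cells. The set was chosen by position, as every peak on chromosome 5 with its midpoint at or above 100000000 on the mm9 build. Positions along the region are given from that border, so that +33 Mb stands for 133000000, and single peaks are given by their full coordinates. The set holds 485 of the 9428 peaks of the list (5.14%, 95% Wilson interval 4.72 to 5.61%) and 485 of the 737 peaks of chromosome 5 (65.8%). The region was picked because its peaks are dense, so the densities given here are a description and were not tested.

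The bound positions came from chromatin immunoprecipitation with sequencing (ChIP-seq) in A2Lox.cre embryonic stem cells, a line in which a chosen cDNA can be switched on with doxycycline. There were 2 groups with 2 libraries each, 4 in all: ChIP of Flag-Sp5 with the M2 antibody to the Flag tag (4 µg per immunoprecipitation) and input chromatin for which no antibody is listed. Both groups were day 3 embryoid bodies, floating aggregates of differentiating cells, and both are labelled as given doxycycline to induce Flag-Sp5, which per the labels was added on day 2 for 24 h. The deposited result is 1 list of intervals for all 4 libraries, with no height, read count or value per library, so depth is unknown and no value has a replicate error. Separate cultures for the libraries of a group are not stated in the labels. No immunoprecipitation from cells without Flag-Sp5 was among the libraries, so background of the antibody and binding of Flag-Sp5 cannot be told apart. What was mapped is the induced, tagged protein, and endogenous Sp5 was not mapped.

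Sp5 belongs to the SP/KLF family of zinc-finger transcription factors, which bind GC-rich boxes and CACC boxes, many of them in promoters. Its gene is a direct target of Wnt/β-catenin signalling in the primitive streak, where Sp5 and the related Sp8 act on Wnt target genes during mesoderm formation. Factors of this family tend to occupy gene-rich, GC-rich chromatin, and distal mouse chromosome 5 is known as a gene-rich stretch that includes the counterpart of the human Williams syndrome interval. No annotation or genome sequence of the mm9 build was used here, so no peak was assigned to a gene and no sequence is shown. Gene content and base composition of the region were not analysed here.

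The distal peaks lay at 9.30 per Mb (95% Poisson interval 8.49 to 10.2) over the 52.2 Mb from the 100 Mb border to the last peak of the chromosome. The 252 peaks below the border lay at 2.61 per Mb (interval 2.29 to 2.95), a ratio of 3.57 (exact interval 3.06 to 4.17). These and all later intervals are at 95%, treat peaks as independent and cover no more than counting error. The midpoints just below the border were 585 kb and 1261 kb from it, in the peaks from 99415068 to 99415294 and from 98739396 to 98739592. The first distal peaks ran from 100546906 to 100547096 and from 100646803 to 100646961, with midpoints 547 kb and 647 kb inside. The border at 100 Mb thus fell in a sparse stretch and did not coincide with a change in density.

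Within the distal part the density differed from stretch to stretch. In the first 10 Mb past the border there were 27 peaks, or 2.70 per Mb (interval 1.78 to 3.93), close to the 2.61 per Mb of the rest of the chromosome. From +10 to +33 Mb the 214 peaks lay at 9.30 per Mb (interval 8.10 to 10.6). From +33 to +43 Mb, the dense part, the 183 peaks lay at 18.3 per Mb (interval 15.7 to 21.2). Then 29 peaks at 9.67 per Mb followed up to +46 Mb (interval 6.47 to 13.9), and 32 peaks at 5.19 per Mb from there to the last peak (interval 3.55 to 7.32). The borders at +10 and +46 Mb were chosen after the bin counts had been seen. The dense part made up 19.2% of the length of the distal region and held 183 of its 485 peaks (37.7%, Wilson interval 33.5 to 42.1%). It was 2.56 times as dense as the remaining 302 distal peaks (exact interval 2.12 to 3.08), which lay at 7.16 per Mb.

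The bins of 1 Mb show where inside the dense part the peaks sit. The bins starting at +33 and +34 Mb held 6 and 15 peaks. Those starting at +35, +36, +37 and +38 Mb held 29, 27, 26 and 19. The bin at +39 Mb dropped to 11, that at +40 Mb held 26, and those at +41 and +42 Mb held 12 each. The 4 Mb from +35 to +39 Mb therefore carried 101 peaks, or 25.3 per Mb (interval 20.6 to 30.7), and the bin at +40 Mb formed a separate second maximum.

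The nominal borders of the dense part were not sharp. The 5 bins below +33 Mb held 7, 17, 7, 6 and 8 peaks, so the bin at +33 Mb, with 6, was no fuller than its neighbours. Comparing the 3 bins on either side of each possible border, the count rose by 53 at +35 Mb (from 29 to 82 peaks), the largest rise of the distal region, against 29 at +33 Mb (from 21 to 50). On the far side the 5 bins from +43 Mb held 10, 7, 12, 1 and 4 peaks. The largest fall of 3-bin counts, by 26, was at +38 Mb, inside the dense part, and at +43 Mb the fall was by 21 (from 50 to 29). The peaks next to the nominal borders were those from 132976678 to 132977114 and from 133096957 to 133097135 at the lower one, and from 142946934 to 142947087 and from 143022518 to 143022665 at the upper one. At +33 Mb the midpoints of these neighbours were 23.1 kb and 97.0 kb from the border. The one below it followed a stretch without peaks from 132443457 to 132976678. Its midpoint distance of 534 kb was longer than any inside the dense part, where the longest was 471 kb. At +43 Mb the neighbours were 53.0 kb and 22.6 kb from the border, so no long empty stretch marked that one.

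Bins of 1 Mb were also counted by how full they were, as a description. Over all autosomes, 7.75% of 2399 bins of 1 Mb held at least 10 peaks, against 22 of the 52 complete bins of the distal region, 3 of the 97 bins below the border and 9 of the 10 bins of the dense part. At least 20 peaks per bin were found in 0.625% of autosomal bins, which is 15 bins, and 4 of these 15 were in the dense part. Of the remaining 11, chromosomes 7 and 11 held 3 each, chromosome 10 held 2, and chromosomes 4, 9 and 17 held 1 each. The bin at +35 Mb shared the highest count of all autosomal bins, 29, with the bin starting at 80 Mb on chromosome 10. The bins from +34 to +44 Mb were a run of 10 consecutive bins with at least 10 peaks each, and the next longest such run on any autosome had 7 bins, on chromosome 4 from 135000000 to 142000000. These counts use the same positions that led to the choice of the region.

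The distal ends of the other 18 autosomes served as the comparison for position along the chromosome. The distal end of an autosome was taken as everything past 0.667 of the coordinate of its last peak, and the 18 ends together held 3353 peaks. Their densities ran from 1.99 per Mb on chromosome 14 to 8.37 on chromosome 4, with a median of 3.90, so distal chromosome 5 ranked first of 19 at 2.38 times that median. Chromosome 4 (8.37 per Mb, interval 7.60 to 9.19) and chromosome 11 (8.29, interval 7.43 to 9.23) had intervals that overlapped that of chromosome 5. Without the dense part, the remaining distal peaks of chromosome 5 at 7.16 per Mb (interval 6.38 to 8.02) would still rank 3 of 19. The other distal ends kept their own densest stretches in that ranking. The interval overlapped those of chromosomes 4, 11 and 15 (6.85 per Mb, interval 6.00 to 7.78). A denser distal end was not general. The ratio of the distal end to the rest was above 1 on 12 of the other 18 autosomes. On chromosomes 7, 9, 18 and 19 among these, its interval included 1. The ratio was 3.43 on chromosome 4 (interval 2.92 to 4.03) and 2.55 on chromosome 15 (interval 2.09 to 3.12), both intervals overlapping that of chromosome 5, and 0.443 on chromosome 14. Below its border, chromosome 5 was among the sparser autosomes, ranking 17 of 19.

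**Figure D1:**
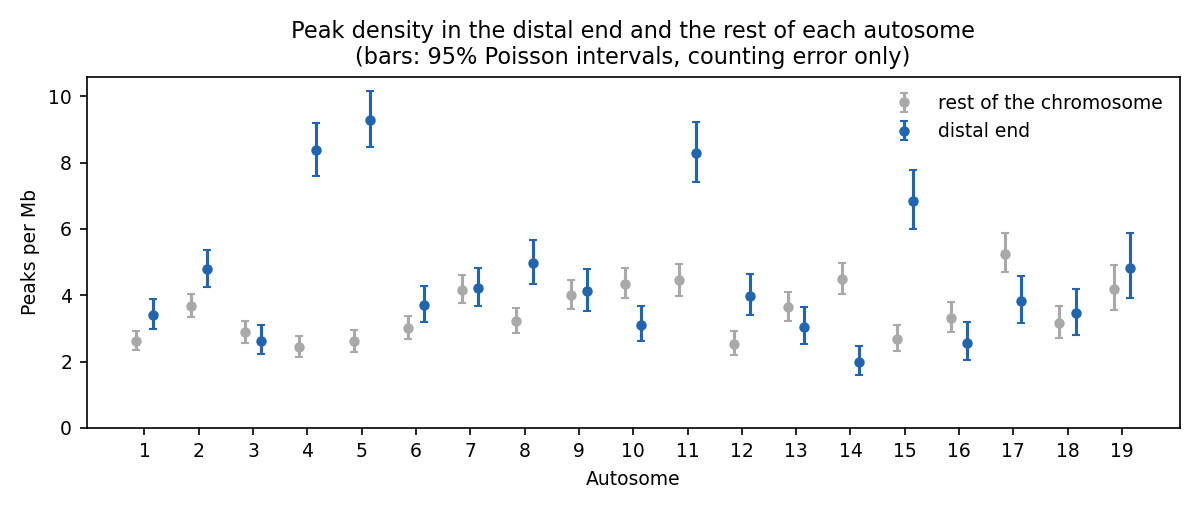
Peaks per Mb (vertical axis) in the distal end (blue) and in the rest (grey) of each of the 19 autosomes (horizontal axis), with 95% Poisson intervals that cover counting error only. Chromosome 5, with its distal part taken from the 100 Mb border, has 9.30 peaks per Mb in blue against 2.61 in grey, and chromosome 4 comes nearest with 8.37 against 2.44.

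A window free to lie anywhere gives each autosome its own best place. The densest 10 Mb window of chromosome 5 held 189 peaks, from 133768314 to 143723929, which is shifted slightly towards the chromosome end from the nominal dense part. The next fullest windows held 136 peaks on chromosome 4, between 131912279 and 141823582, and 130 on chromosome 11, between 94277069 and 104157181. The median of the other 18 autosomes was 86 and the lowest was 56. Chromosome 5 also ranked first once each window was divided by the mean density of its own chromosome, at 3.82 times, against at most 3.08 times elsewhere, on chromosome 3. With windows of 5 Mb and 20 Mb it held 120 and 280 peaks, against at most 89 on chromosome 7 and 232 on chromosome 4. The centre of the chromosome 5 window stood at 91.2% of the way to the last peak, and 6 of the other 18 autosomes had their densest window centred past 0.667 of the last peak's coordinate.

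**Figure D2:**
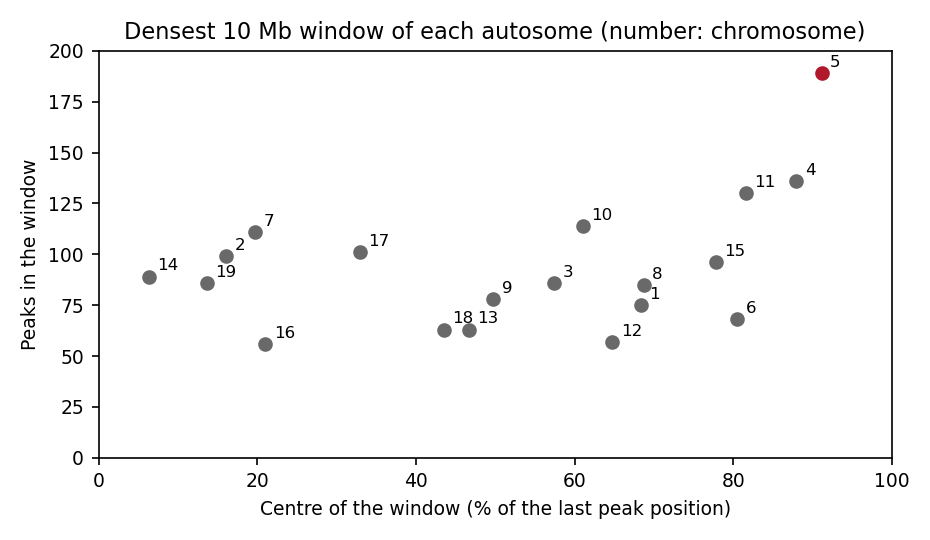
Number of peaks in the densest 10 Mb window of each autosome (vertical axis) against the centre of that window as a percentage of the position of the last peak (horizontal axis), with 1 point per autosome labelled by its number. Chromosome 5 (red) stands at 189 peaks and 91.2%, above chromosomes 4 and 11 with 136 and 130.

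Peaks of the dense part lay close together but not in an unbroken row. The median distance between neighbouring midpoints was 27.7 kb in the dense part (interval of the median 22.1 to 34.5 kb), 69.1 kb among the other distal peaks (56.6 to 92.2 kb) and 171 kb below the border (139 to 212 kb). Over all distal peaks it was 45.7 kb, the shortest of the 19 distal ends, where the others ran from 56.0 kb on chromosome 4 to 252 kb on chromosome 14. Distance falls as density rises, so the median was also divided by the mean distance. It was 0.513 times the mean in the dense part, 0.499 times among the other distal peaks and 0.447 times below the border. Over all distal peaks it was 0.429 times, within the range of 0.366 to 0.600 of the other distal ends.

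The greater density of the dense part took the form of more occupied windows and more peaks in each. Of its 100 windows of 100 kb, 75 held a peak, against 183 of 421 (43.5%) for the other distal peaks and 20.5% below the border. The occupied windows of the dense part held 2.44 peaks on average, against 1.65 and 1.27. At a scale of 10 kb the excess was almost wholly one of occupied windows, which follows largely from so small a window at these densities. The share of occupied 10 kb windows was 16.1% in the dense part and 6.43% in the other distal stretches, a ratio of 2.51, while the number of peaks per occupied 10 kb window was 1.14 and 1.11. In the dense part, 6 windows of 100 kb held 5 or more peaks, and outside it no distal window on the same grid held more than 4. More full windows follow in part from the higher density, and their share over all autosomes was not counted. In 1 Mb bins of 20 or more peaks, occupied 100 kb windows held 2.92 peaks on chromosome 5 and 2.76 on the other autosomes.

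Of the 5 longest stretches without peaks, 4 lay in the first 10 Mb of the distal region. The longest between neighbouring distal peaks ran from 104888576 to 106129532, with midpoints 1241 kb apart. The next were from 109023622 to 109986097 (963 kb), from 101311552 to 102256581 (945 kb) and from 102256724 to 103063940 (807 kb). The fifth, from 145969427 to 146769641 (800.4 kb), coincided with the fall in bin counts at +46 Mb. Inside the dense part the longest was 471 kb, from 138716626 to 139187321, just before and in the bin with 11 peaks. The next there were 395 kb from 133373657 to 133768314 and 368 kb from 139626153 to 139993156.

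The longest stretch in which no 2 neighbouring midpoints were over 100 kb apart ran from 134789226 to 135730006 on chromosome 5, with 31 peaks over 0.941 Mb. Chromosome 14 had one almost as long, 0.915 Mb with 22 peaks. With 200 kb allowed, the stretch on chromosome 5 grew to 3.90 Mb with 109 peaks, from 134459304 to 138363542, and the next longest was 2.93 Mb with 34 peaks on chromosome 14. With 50 kb or 150 kb allowed, chromosome 5 ranked 2, behind chromosomes 10 and 3 respectively. By this measure of unbroken spacing chromosome 5 was thus not always first, whereas by the number of peaks in 5, 10 or 20 Mb it was.

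**Figure D3:**
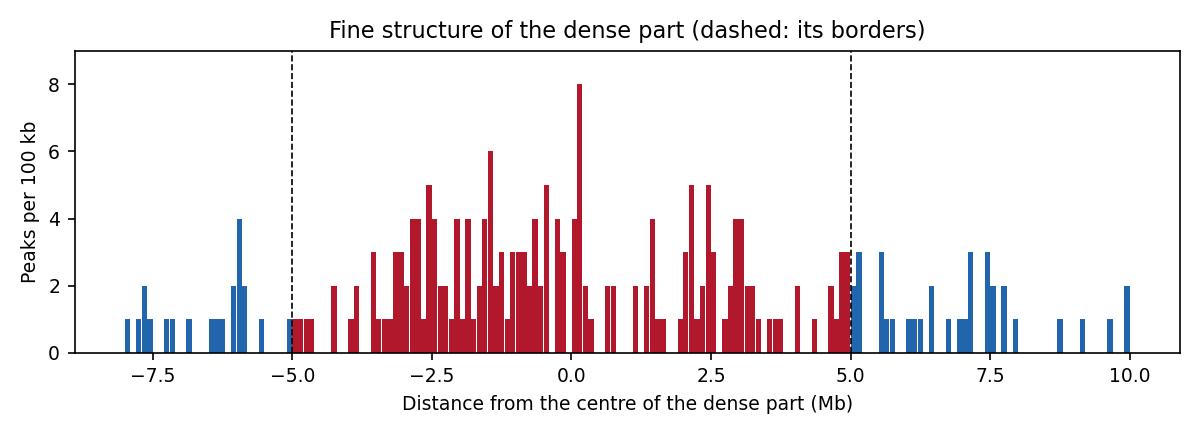
Peaks per 100 kb window (vertical axis) from 8 Mb before to 10 Mb after the centre of the dense part (horizontal axis, Mb), with red bars inside the dense part, blue bars outside it and dashed lines at its borders. The highest bar, 8 peaks, lies just past the centre, and 25 of the 100 windows of the dense part are empty.

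Close neighbours were counted for the dense part, the other distal peaks and the peaks below the border. Another midpoint lay within 10 kb for 69 of its 183 peaks (37.7%, Wilson interval 31.0 to 44.9%), for 86 of the other 302 distal peaks (28.5%, interval 23.7 to 33.8%) and for 51 of the 252 peaks below the border (20.2%, interval 15.7 to 25.6%). The share over all 485 distal peaks was 32.0%, rank 3 among the 19 distal ends, and the highest was 39.8% on chromosome 15. The share follows the density in part, so bins of like counts were set side by side. In bins of 20 or more peaks it was 45.4% on distal chromosome 5 (49 of 108 peaks, interval 36.3 to 54.8%) and 48.0% on the other autosomes (118 of 246, interval 41.8 to 54.2%). In bins of 10 to 19 peaks it was 35.6% (interval 29.6 to 42.0%) and 40.7% (interval 38.6 to 42.9%), and in bins of 5 to 9 peaks 15.8% (interval 10.4 to 23.4%) and 23.9% (interval 22.6 to 25.4%). At each of these counts the intervals overlapped and the share on chromosome 5 was the lower one. Only bins of 1 to 4 peaks had the higher share on chromosome 5, 21.9% (7 of 32 peaks, interval 11.0 to 38.8%) against 9.63% (interval 8.60 to 10.8%).

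The bins of the dense part differed in how their peaks were spaced. In the bin at +37 Mb, 18 of 26 peaks had a neighbour within 10 kb. In the bin at +34 Mb, none of 15 did, with 8 of its 10 windows of 100 kb occupied. The bins at +35 and +36 Mb had peaks in all 10 windows, with 9 of 29 and 10 of 27 peaks close to another, while the bin at +38 Mb put its 19 peaks into 6 windows.

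Chaining peaks at distances of up to 10 kb left 114 single peaks, 18 pairs, 9 triples and 1 longer chain in the dense part. The other distal peaks formed 216 single peaks, 35 pairs, 4 triples and 1 longer chain. The longest chain of the distal region had 6 peaks in 11.3 kb, from 138177808 to 138189059. With windows of 100 kb free to start at any peak, it belonged to the fullest one of the region, with 8 peaks from 138109196 to 138189059. Their widths in order were 201, 141, 180, 165, 199, 287, 141 and 149 bp, and 3 of the 8 were wider than the list median of 195 bp. The only other chain of more than 3 peaks had 4 in 3.09 kb, from 123585587 to 123588679, outside the dense part.

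Another 6 such free windows, sharing no peak, held 6 peaks each, and 5 of them were in the dense part. Windows on the fixed grid can split such groups. The 5 ran from 135409673 to 135506119, from 136438370 to 136529095, from 137058167 to 137136827, from 139384467 to 139480186 and from 140380616 to 140463111. Their median widths were 178.5, 260.0, 159, 257 and 209.5 bp in that order. The window from 137058167 held no peak wider than the list median, whereas that from 136438370 held 5. The window outside the dense part, from 118885382 to 118933905, had the widest peaks, with a median of 335.5 bp. Full windows of this kind follow in part from density, and those on other autosomes were not counted.

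Pairs of midpoints within 1 kb numbered 16 in the distal region, with distances from 191 to 942.5 bp and a median of 391 bp. In 12 of them the edges were less than 500 bp apart, the closest at 40 bp, and whether such pairs are separate sites or a split interval was not tested. Of the 16 pairs, 6 were in the dense part, where 6.56% of peaks had a neighbour within 1 kb (12 of 183, Wilson interval 3.79 to 11.1%), against 6.62% of the other distal peaks (20 of 302, interval 4.33 to 10.01%). One of these joined the peaks from 138181968 to 138182132 and from 138182227 to 138182425, inside the chain of 6. The 3 Mb beyond the dense part, with 29 peaks, held 4 pairs, so that 8 of these 29 peaks (27.6%, Wilson interval 14.7 to 45.7%) had a neighbour within 1 kb. That 3 Mb stretch was singled out after its counts were seen. Over the distal region 6.60% of peaks had a neighbour within 1 kb (32 of 485, interval 4.71 to 9.17%). On the other autosomes 7.80% did (665 of 8528, interval 7.25 to 8.39%), so such pairs were no commoner here. In 1 Mb bins of 20 or more peaks the share was 7.41% on distal chromosome 5 (interval 3.80 to 13.9%) and 14.2% on the other autosomes (interval 10.4 to 19.1%).

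The distal peaks were of similar width inside and outside the dense part. A width here is that of a listed interval, set by the peak caller, and not the extent of binding. Median width was 202 bp in the dense part (interval of the median 192 to 220 bp), 203.5 bp among the other distal peaks (189 to 213 bp) and 194.5 bp below the border (185 to 202 bp). The median over all 485 distal peaks was 203 bp and their mean width 228.7 ± 93.3 bp (SD, 485 peaks), and the medians of the other distal ends ran from 183 to 204 bp. Peaks over 300 bp made up 16.4% of the dense part (30 of 183, interval 11.7 to 22.4%), 15.9% of the other distal peaks (48 of 302, interval 12.2 to 20.4%) and 10.3% of those below the border (26 of 252, interval 7.14 to 14.7%). Peaks of the smallest listed width, 141 bp, made up 9.29%, 6.95% and 8.33% in the same order, with overlapping intervals. In the distal ends of the other autosomes, 14.1% of peaks were over 300 bp (472 of 3353, interval 12.9 to 15.3%). There 6.41% were 141 bp wide (interval 5.63 to 7.29%). Distal chromosome 5 as a whole had 16.1% (interval 13.1 to 19.6%) and 7.84% (interval 5.76 to 10.6%). It ranked 5 among the 19 distal ends for each share. Across the 485 distal peaks Spearman's rho was 0.05 between width and the number of peaks in the same 1 Mb bin, and -0.04 between width and the distance to the nearest midpoint. Neighbouring peaks share their bin, so these are descriptions. The summed width of peaks per Mb, 4.21 kb in the dense part and 1.63 kb in the other distal stretches, thus rose in step with the number of peaks, by 2.58 times.

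**Figure D4:**
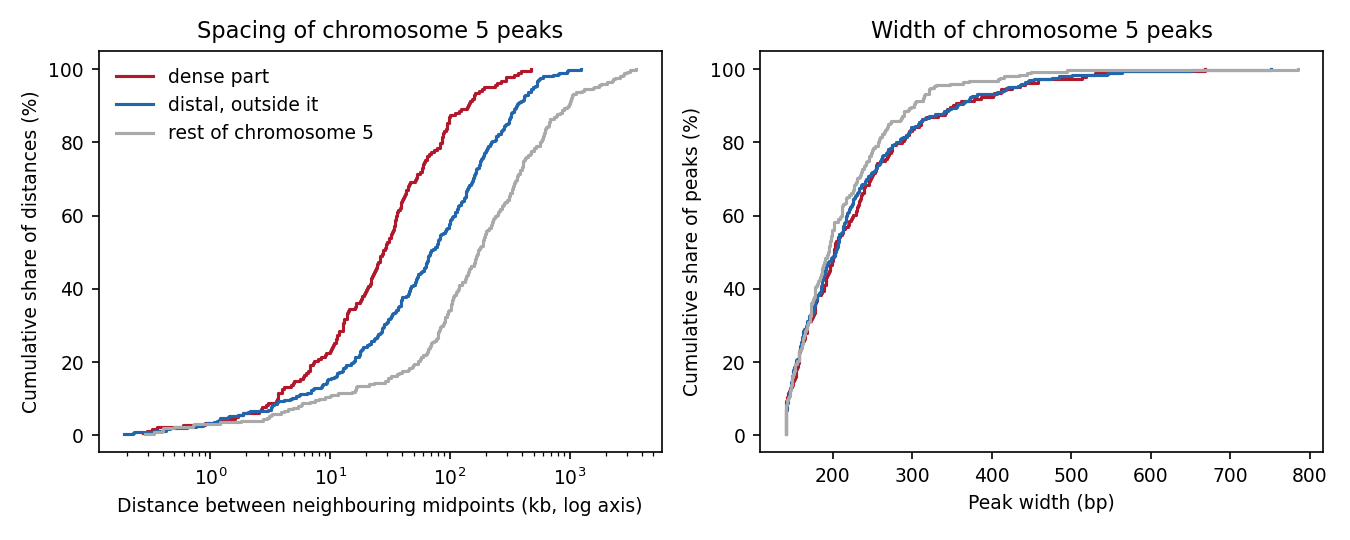
Left, cumulative share of distances between neighbouring midpoints (vertical axis, %) against distance in kb on a log axis. Right, cumulative share of peaks against width in bp; in both, red is the dense part, blue the other distal peaks and grey the rest of chromosome 5. The spacing curves are apart, as distance follows density in part, with medians of 27.7, 69.1 and 171 kb. The width curves have medians of 202, 203.5 and 194.5 bp.

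The widest distal peak ran from 129106024 to 129106774 (751 bp) and lay outside the dense part, 3.57 kb from its nearest neighbour. It ranked 11 in width in the whole list. The next were from 139625486 to 139626153 (668 bp) and from 143685697 to 143686348 (652 bp). Those of 564 bp from 116793665 to 116794228, 558 bp from 134850913 to 134851470, 546 bp from 130417355 to 130417900 and 545 bp from 150076092 to 150076636 followed. The last of the 10 widest, from 134064984 to 134065513 (530.0 bp), from 135164637 to 135165154 (518 bp) and from 137763187 to 137763699 (513 bp), were all in the dense part. In all, 5 of the 10 widest were in the dense part, which held 37.7% of all distal peaks. Another midpoint lay within 10 kb for 2 of the 10, against 32.0% of all distal peaks. With 10 peaks, these counts do not set the widest apart from the rest.

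The densest 10 Mb window of chromosome 5 was set beside the next 4 by number of peaks, those of chromosomes 4, 11, 10 and 7, with 136, 130, 114 and 111 peaks. Their median widths were 197, 200, 197 and 217 bp in that order, against 202 bp in the 189-peak window of chromosome 5. The median distance between midpoints was 27.4 kb on chromosome 5 (interval of the median 22.0 to 34.5 kb). It was 43.1 kb on chromosome 4 (33.9 to 55.0 kb), 43.2 kb on chromosome 11 (30.5 to 65.7 kb), 40.5 kb on chromosome 10 (31.8 to 59.2 kb) and 32.7 kb on chromosome 7 (18.03 to 44.6 kb), and each of these intervals overlapped that of chromosome 5. A neighbour within 10 kb was found for 39.2% of the chromosome 5 peaks (Wilson interval 32.5 to 46.3%) and for 38.7% of the chromosome 7 peaks (interval 30.2 to 48.0%). The share was 33.1% on chromosome 4 (interval 25.7 to 41.4%), 29.2% on chromosome 11 (interval 22.1 to 37.6%) and 23.7% on chromosome 10 (interval 16.8 to 32.3%), the last of these just below the interval of chromosome 5. Chained at 10 kb, 20.7% of groups on chromosome 5 had 2 or more peaks, against 20% on chromosome 7, 15.7% on chromosome 4, 14.0% on chromosome 11 and 12.1% on chromosome 10. The longest chain had 6 peaks in the windows of chromosomes 5, 4 and 7. By the share with a neighbour within 10 kb and the share of chained groups, the window of chromosome 7 was close to that of chromosome 5. It was less evenly filled. Its longest distance between midpoints was 2784 kb against 471 kb on chromosome 5. Of 100 windows of 100 kb, 49 were occupied on chromosome 7 and 72 on chromosome 5. No test was made.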

How the data were processed

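The authors deposited 1 peak list without a header, with 3 columns (chromosome, 0-based start, end), and no other unit such as a score or fold. The coordinates are on mm9, and Bowtie, Picard, MACS2 and HOMER are listed, per the submitters' processing notes, without versions; roles, thresholds and the combining of libraries are not stated there. Starts were raised by 1 for printing, and peaks were placed by midpoint. Bins lay on multiples of their size. So did the occupied windows of the distal region and its dense part, while those below the border were laid from the first peak. The fullest and densest windows could start at any peak. Poisson intervals are exact, ratio intervals are exact conditional binomial, share intervals are Wilson, and intervals of medians come from binomial ranks, all at 95% (Python 3.11.15, scipy 1.17.1). No test was made, because peaks of 1 list are not replicates and the members and comparisons were chosen with earlier results of these data known. Regions named were the 10 widest distal peaks, the 5 longest stretches, the fullest 100 kb windows with ties, the peaks at the borders and the bins of the dense part and 5 on each side; any other region was picked with its values in view. The procedures were tested on 20 simulated lists with a planted dense part. The ratio of that part to the other distal peaks lay in the interval in 20. The densest 10 Mb window began within 1 Mb of the planted border in 20. In the real list the borders of the dense part were not sharp, and the variance of its bin counts was 3.67 times their mean. Recovery of a planted part therefore does not show that the intervals or borders hold for the real list.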

Additional observations from a re-analysis of the deposited data

How the results depend on the processing

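Keeping only peaks wider than the list median, which removes about as many peaks as it keeps, gave 4.96 distal peaks per Mb, 101 in the dense part, 19 in the fullest 1 Mb bin, a median distance of 80.2 kb and 18.5% with a neighbour within 10 kb; fewer peaks by construction. Distal chromosome 5 still ranked first in density and in the densest 10 Mb window in this set, after merging peaks less than 500 bp apart and without peaks of 141 bp. The fullest bin held 16 peaks at 0.5 Mb and 53 at 2 Mb. Taking only +38 to +43 Mb as the dense part lowered its ratio to the other distal peaks to 1.86; other borders gave 2.47 to 3.06. Neighbours were found for 6.60% within 1 kb, 21.6% within 5 kb and 73.8% within 50 kb. The other alternatives for these results moved a value by less than its interval, or a count by less than 1.5 times. A run of 32 consecutive occupied 100 kb windows on chromosome 5 (17 at most elsewhere) fell to 14 when the windows were shifted by 50 kb (15 on chromosome 14), so it is not used. The 3 peak sets as alternatives for the ratio of the dense part, the fullest bin and the densest window, borders moved by 5 Mb for width and spacing, +35 to +41 Mb as the dense part and the run were chosen after seeing the data. Sequence features and gene lists were not run, as no mm9 sequence or annotation was used. No paired analysis was possible because libraries are not separated in the list, and for that reason no replicate could be left out. Since depth and threshold are unknown, an absent peak does not show absent binding.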
